A study of Homo sapiens with 6 samples.

Results

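The levels of 10 chemokine genes of an esophageal squamous cell carcinoma (ESCC) line were followed after knockdown of a long non-coding RNA. The genes were taken by name: CXCL1, CXCL2, CXCL3, CXCL5, CXCL8, CXCL10, CXCL11, CXCL16, CCL5 and CCL20. All 10 had an identifier among the 67140 genes of the table, and 7 were among the 19254 genes that passed the filter on low counts. CXCL1, CXCL5 and CXCL10 did not pass it and were not tested.

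Chemokines are small secreted proteins that bind G protein-coupled receptors and set the direction in which leukocytes migrate. CXCL1, CXCL2, CXCL3, CXCL5 and CXCL8 carry a glutamate-leucine-arginine motif, act on CXCR2 (CXCL8 also on CXCR1) and attract neutrophils. CXCL10 and CXCL11 are induced by interferon and attract T cells through CXCR3. CXCL16 is made as a membrane protein, is shed by metalloproteases and binds CXCR6. CCL5 attracts T cells and monocytes, and CCL20 attracts cells that carry CCR6. In squamous epithelium, interleukin-1 and TNF induce many of these genes through NF-κB, AP-1 and C/EBP factors, and AU-rich elements in the mRNA shorten the life of several transcripts.

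KYSE150, an established human ESCC line, was grown in RPMI medium with fetal bovine serum. It carried a control hairpin (shCtrl, 3 samples) or a hairpin against the lncRNA AC007128.1 (shAC007128.1, 3 samples). The groups follow the sample titles and descriptions, since the treatment text of the labels names the hairpin against AC007128.1 for every sample. The lines were made stable with lentivirus and puromycin, with 1 hairpin against the target and 1 control, and no inducing cytokine is named in the labels. Nothing in the labels says that the 3 samples of a group were separate cultures, so p-values measure only the spread between these samples, which may be technical. In bulk RNA, fewer cells of a type and less RNA per cell cannot be told apart.

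Totals were 65140326 to 78610457 counts in shCtrl and 55764405 to 60158244 in shAC007128.1, and every shCtrl total lay above every shAC007128.1 total. At these depths 3 counts equal 0.0373 to 0.0546 CPM (counts scaled by library size and TMM factor), taken as the floor of detection, for counting error only. AC007128.1 itself (ENSG00000229970, hg38 chromosome 7, 8262264 to 8344516) had 69, 33 and 53 counts in shCtrl replicates 1, 2 and 3 and 18, 37 and 15 in shAC007128.1. Of its 1853 exonic bases 782 are shared with ICA1, ICA1-AS1 and ENSG00000272328. The groups overlapped, and the log2 fold change of −0.77 (SE 0.51) did not pass the edgeR quasi-likelihood test (adjusted p = 0.271). By qPCR, a separate measurement, the paper reports that its hairpin lowered AC007128.1 in ESCC cells. Summed CPM of 11 squamous markers, which include KRT5 and TP63, ran from 2133 to 2174 in shCtrl and from 2979 to 3727 in shAC007128.1. Of 13 leukocyte markers 5 were at 0 in all samples (among them CD2, FCGR3B and HLA-DRA), and PTPRC had at most 9 counts. The leukocyte sum was 63.2 to 72.6 CPM in shCtrl and 18.6 to 28.0 CPM in shAC007128.1. Most of it was CD68, which shares 1852 of its 2163 exonic bases with other genes. The sum of 8 fibroblast markers ran from 15.3 to 16.2 and from 20.9 to 23.9 CPM. That of 5 endothelial markers ran from 2.29 to 3.23 and from 0.302 to 2.02 CPM. The part of these marker differences in the chemokine results was not tested.

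The promoters are shown because most of the CXC genes share one motif there. RefSeq promoters on GRCh38.p14 (250 bases before to 50 after the start) were found for 8 of the 10 genes, and CXCL16 and CCL5 had no entry. The RefSeq start is the GENCODE start in CXCL1, CXCL5 and CXCL10 and lies inside the GENCODE span in the others, far inside it in CXCL11 and CCL20. The motifs searched were a κB motif (GGAANTTCC, both strands), an AP-1 motif (TGANTCA, both strands), an interferon-response motif (GAAANNGAAA, both strands) and a TATA box (TATAAA, gene strand). No matches of different motifs overlapped in the windows shown. The κB motif was present in 7 of the 8 promoters and in 0.966% of 34796 distinct promoters. Only these letters were searched, so CCL20, without a match, may still hold a κB site of other letters. The AP-1 motif was found in CXCL8 and CXCL11 (7.73% of all promoters) and the interferon-response motif in CXCL10 (3.57%). A TATA box was found in CXCL8, CXCL11 and CCL20 (7.37%). Capitals mark these motifs, and each sequence reads 5′ to 3′ on the gene's strand. The TATA boxes of CXCL8 and CXCL11, at −31 and −42 from the start, lie outside the windows shown. The windows are chr4:73869283-73869342 (plus) for CXCL1, chr4:74099246-74099305 (minus) for CXCL2, chr4:74038740-74038799 (minus) for CXCL3 and chr4:73998738-73998797 (minus) for CXCL5. They are chr4:73740419-73740498 (plus) for CXCL8, chr4:76023653-76023732 (minus) for CXCL10, chr4:76036121-76036180 (minus) for CXCL11 and chr2:227813742-227813821 (plus) for CCL20.
CXCL1: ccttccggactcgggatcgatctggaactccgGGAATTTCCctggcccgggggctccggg
CXCL2: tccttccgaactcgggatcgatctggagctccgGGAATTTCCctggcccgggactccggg
CXCL3: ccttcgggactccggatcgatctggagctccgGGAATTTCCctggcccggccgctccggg
CXCL5: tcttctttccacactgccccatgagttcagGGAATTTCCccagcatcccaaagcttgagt
CXCL8: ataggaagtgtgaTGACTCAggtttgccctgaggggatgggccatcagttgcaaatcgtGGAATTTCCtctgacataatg
CXCL10: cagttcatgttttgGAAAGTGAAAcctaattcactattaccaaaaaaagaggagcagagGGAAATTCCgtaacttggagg
CXCL11: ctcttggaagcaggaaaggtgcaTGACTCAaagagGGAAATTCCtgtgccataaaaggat
CCL20: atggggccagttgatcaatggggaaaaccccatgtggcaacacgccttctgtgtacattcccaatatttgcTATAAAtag
The κB motif began at −78, −77 and −78 from the start in CXCL1, CXCL2 and CXCL3, at −90 in CXCL5 and at −91 in CXCL8. It began at −176 in CXCL10 and at −75 in CXCL11. These matches describe the letters only. CXCL1, CXCL2, CXCL3, CXCL5 and CXCL8 held the same 9 letters. Of these genes CXCL2 and CXCL3 fell, CXCL8 rose, and CXCL1 and CXCL5 were at or near 0. The part of the motif in these levels was not tested.

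CXCL2, CXCL16 and CCL5 were lower in shAC007128.1, CXCL3 was lower by less than 2-fold and CXCL8 was higher by less than 2-fold. A gene was called when its adjusted p was at most 0.05 and its fold change at least 2. Of the 7 tested chemokines 3 were called lower, where 10.1% of all tested genes were. None was called higher, where 5.57% were; by the unadjusted p under 0.05 in edgeR 1 was higher and 4 were lower (24.9% and 24.2% of all tested genes), and DESeq2 and limma-voom also called 0 higher. By adjusted p alone 4 were lower and 1 was higher, against 19.8% and 21.0% of all tested genes. The groups did not overlap for any of the 7, with 6 below and 1 above, where 55.2% of all tested genes did not overlap, 28.2% below and 27.0% above. CXCL11 passed the filter only through its shCtrl counts (25, 24 and 21, against 0, 0 and 9). CCL20 (66, 41 and 32, against 9, 21 and 19) also needed its shCtrl counts to pass. The places of both among the 6 are thus not independent of the filter. CXCL10, whose groups overlapped, did not pass the filter and is not in these counts. Their median log2 fold change was −1.15, and that of all tested genes was −0.02.

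**Figure D1:**
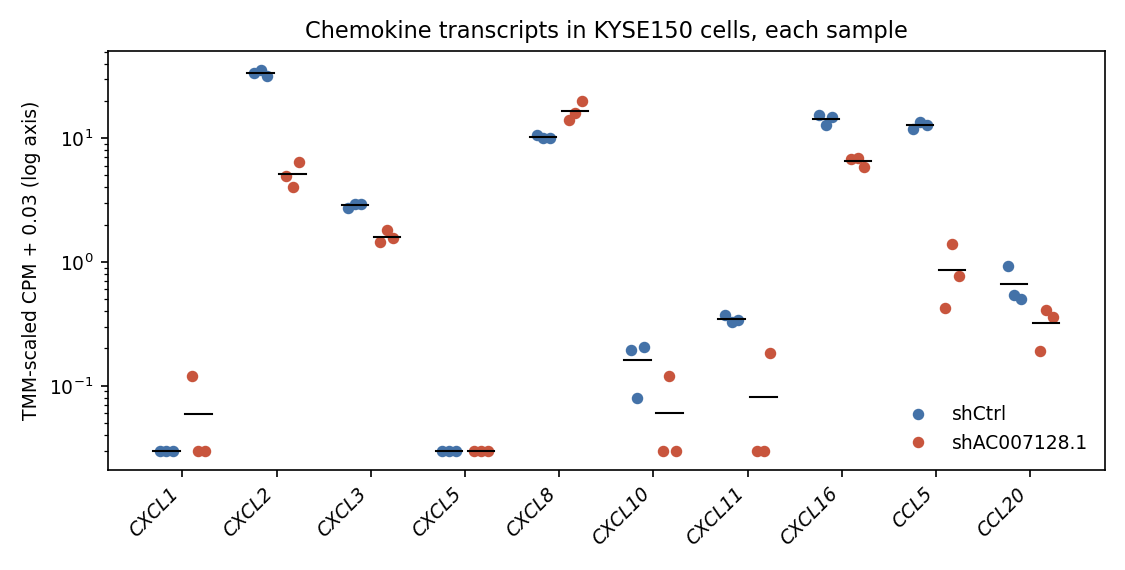
Level of each chemokine in each of the 6 samples, in CPM with a small constant added and on a log axis, with 1 point per sample and the mean of each group of 3. CXCL2, CXCL16 and CCL5 sat lower in all 3 shAC007128.1 samples than in any shCtrl sample, and CXCL8 sat higher.

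CXCL2 (ENSG00000081041, hg38 chromosome 4, 74097040 to 74099196, minus strand) is a neutrophil attractant of the GRO group. It had 33.4, 35.6 and 31.9 CPM in shCtrl replicates 1, 2 and 3 and 4.89, 3.98 and 6.36 CPM in shAC007128.1. The highest knockdown sample lay far under the lowest control. The mean fell from 33.6 ± 1.87 to 5.08 ± 1.20 CPM (SD, n = 3 each), to 15.1% of control. The log2 fold change was −2.73 (SE 0.18, adjusted p = 6.45e-05), a 6.62-fold lower level, and it ran from −2.93 to −2.57 with each sample left out in turn.

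CXCL3 (ENSG00000163734, chromosome 4, 74036589 to 74038807, minus strand), its close relative, had 2.69, 2.91 and 2.92 CPM in shCtrl and 1.42, 1.76 and 1.53 CPM in shAC007128.1. All 3 knockdown samples were below all controls, and the samples within a group were close together. The level fell to 55.4% of control (log2 fold change −0.85, SE 0.19, adjusted p = 0.00954), short of the fold limit. Tested against a fold of 1.5 with glmTreat, its adjusted p was 0.154.

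CXCL1 (ENSG00000163739, chromosome 4, 73869393 to 73871308, plus strand) was listed at 0 in 5 samples and at 5 counts in shAC007128.1 replicate 1. CXCL5 (ENSG00000163735, chromosome 4, 73995642 to 73998677, minus strand) was listed at 0 in all 6 samples, under the floor of 3 counts. It shares 422 of its 2436 exonic bases with ENSG00000287037. CXCL1, CXCL2 and CXCL3 have nearly identical coding sequences: identity was 93.5% for CXCL1 and CXCL2, 90.8% for CXCL1 and CXCL3 and 94.4% for CXCL2 and CXCL3. Of the 1125 words of 50 bases in the CXCL1 transcript, 60 (5.33%) also occur in CXCL2 and 6 (0.533%) in CXCL3. Most of the transcript is thus not shared with either gene at that length. How the counting treated shared reads is not given in the sources used here, so the split of the shared part between the genes is uncertain. Whether it bears on the 0 of CXCL1 was not tested. The sum of CXCL1, CXCL2 and CXCL3 does not depend on how reads were split among them, but would if shared reads were discarded. In edgeR this sum fell by 2.45 on the log2 scale (SE 0.14, adjusted p = 4.15e-05). CXCL2 made up most of the shCtrl sum (33.6 CPM on average, against 2.84 for CXCL3 and 0 for CXCL1). The fall of the sum thus largely repeats that of CXCL2.

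CXCL8 (ENSG00000169429, chromosome 4, 73740519 to 73743716, plus strand), or interleukin-8, is the ligand of CXCR1 and CXCR2. It had 10.5, 9.91 and 10.1 CPM in shCtrl and 13.9, 15.9 and 19.8 CPM in shAC007128.1. All knockdown samples were above all controls, and they were spread more widely. The mean rose from 10.2 ± 0.299 to 16.5 ± 2.99 CPM (SD, n = 3 each). The log2 fold change was 0.70 (SE 0.15, adjusted p = 0.00867), a 1.63-fold rise that did not reach the fold limit. With each sample left out it ran from 0.55 to 0.81, with adjusted p at most 0.0363, and its adjusted p against a fold of 1.5 was 0.314. CXCL8 and CXCL2 share 55.4% of their coding sequence and no word of 50 bases.

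CCL5 (ENSG00000271503, chromosome 17, 35871491 to 35880793, minus strand), or RANTES, had 11.8, 13.4 and 12.8 CPM in shCtrl. It had 0.391, 1.36 and 0.739 CPM in shAC007128.1, where the counts were 22, 75 and 43. The groups were far apart, and replicate 2 was the highest of the knockdown samples. The level fell to 6.57% of control, from 12.7 ± 0.847 to 0.832 ± 0.493 CPM (SD, n = 3 each). The log2 fold change was −3.93 (SE 0.41, adjusted p = 0.000369), 15.2-fold lower and the largest in size of the 7 fitted changes, with a range of −4.47 to −3.59 when a sample was left out.

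CXCL16 (ENSG00000161921, chromosome 17, 4733533 to 4739928, minus strand) had 15.4, 12.7 and 14.9 CPM in shCtrl and 6.70, 6.88 and 5.81 CPM in shAC007128.1. The groups did not overlap. It fell from 14.3 ± 1.41 to 6.46 ± 0.572 CPM (SD, n = 3 each; log2 fold change −1.15, SE 0.14, adjusted p = 0.000698), 2.21-fold lower. Of its 2793 exonic bases 172 overlap MED11 and ZMYND15, and strand use in counting is not given in the sources used here.

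The interferon-induced pair was near the smallest detectable level. CXCL10 (ENSG00000169245, chromosome 4, 76021118 to 76023497, minus strand) had 12, 4 and 12 counts in shCtrl and 0, 5 and 0 in shAC007128.1, and the groups overlapped. CXCL11 (ENSG00000169248, chromosome 4, 76033682 to 76041415, minus strand) had 25, 24 and 21 counts in shCtrl and 0, 0 and 9 in shAC007128.1. Its fitted log2 fold change of −2.55 (SE 1.17) did not pass (adjusted p = 0.123), and across the alternatives the adjusted p ran from 0.00766 to 0.272. It passed in limma-voom (−3.77, adjusted p = 0.0226) and without shAC007128.1 replicate 3 (−7.41, adjusted p = 0.00766), when both remaining knockdown samples were at 0 and the fitted value is no bound. Both genes lie inside the span of ART3. Low values of the table piled up at 4 (1238 to 1380 genes per sample at 4 counts, 675 to 815 at 3), so counts of 4 or 5 carry little information.

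CCL20 (ENSG00000115009, chromosome 2, 227805739 to 227817564, plus strand) had 0.901, 0.509 and 0.471 CPM in shCtrl and 0.160, 0.382 and 0.327 CPM in shAC007128.1. The groups did not overlap, but they were close. The log2 fold change was −1.11 (SE 0.48) and did not pass (adjusted p = 0.107).

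**Figure D2:**
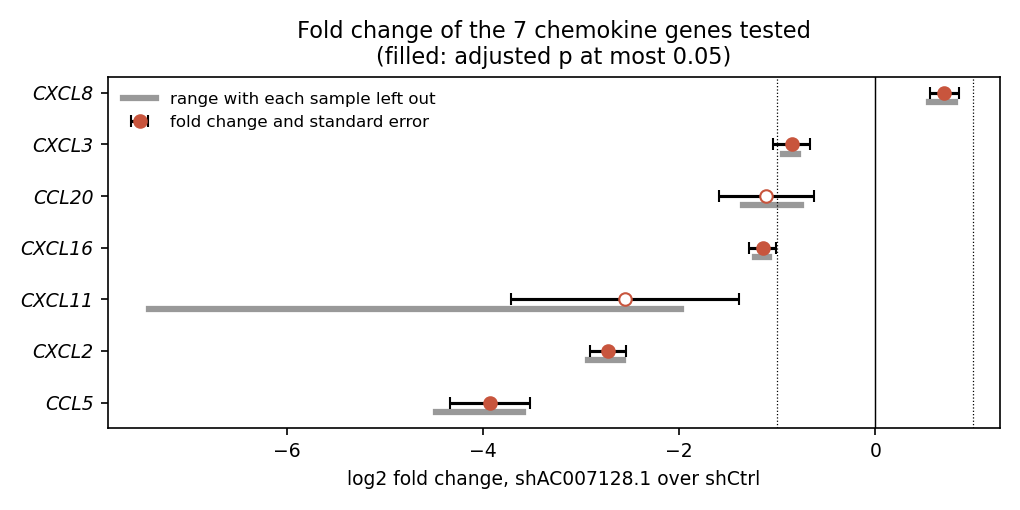
Log2 fold change of shAC007128.1 over shCtrl for the 7 tested chemokines, with standard errors, and grey bars for the range with each of the 6 samples left out. Filled points had an adjusted p of at most 0.05, and dotted lines mark a 2-fold change; CXCL8 alone lay above 0, at 0.70, and CXCL11 had the widest range.

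The rank order of the chemokines differed between the groups. On the scale of CPM per kb of exon, CXCL2 was first in shCtrl (24.1 ± 1.33, SD, n = 3), followed by CCL5 (9.28 ± 0.621), CXCL16 (5.12 ± 0.505) and CXCL8 (3.92 ± 0.116). CXCL3 (1.28 ± 0.0576), CCL20 (0.394 ± 0.149), CXCL11 (0.178 ± 0.0126) and CXCL10 (0.111 ± 0.0595) came next, and no neighbours among these 8 overlapped. In shAC007128.1 the first was CXCL8 (6.39 ± 1.16), then CXCL2 (3.63 ± 0.858) and CXCL16 (2.31 ± 0.205). CXCL3 (0.709 ± 0.0789) and CCL5 (0.610 ± 0.362) overlapped each other, CCL20 followed at 0.182 ± 0.0725, and CXCL11, CXCL10 and CXCL1 overlapped near the floor. Without the length correction CXCL8 was still first in shAC007128.1 and CXCL2 in shCtrl. CXCL16 then lay above CXCL2 in shAC007128.1 (6.46 and 5.08 CPM, with overlapping ranges) and above CCL5 in shCtrl (14.3 and 12.7 CPM, also overlapping).

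The summed level of the 10 genes was 44.1, 45.5 and 43.3 CPM per kb in shCtrl and 12.4, 13.6 and 15.8 in shAC007128.1. All 3 knockdown samples were lower (two-sided exact permutation test, p = 0.1, the smallest that 3 against 3 samples allow). CXCL8 made up 9.18, 8.41 and 8.97% of that sum in shCtrl and 43.5, 45.3 and 48.4% in shAC007128.1, a difference of 36.9 percentage points. CXCL2 made up 54.0, 55.9 and 52.7% and then 28.3, 21.0 and 28.8%. The share of CCL5 went from 20.9 ± 1.21% to 4.37 ± 2.65% (SD, n = 3). That of CXCL16, whose own level fell, went from 11.6 ± 1.38% to 16.9 ± 3.30%, since the shares add up to a fixed total. For each of these 4 shares the groups did not overlap (two-sided exact permutation test, p = 0.1). The log2 ratio of CXCL8 to CXCL2 moved from −2.61 ± 0.103 to 0.83 ± 0.255 (SD, n = 3, exact p = 0.1).

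**Figure D3:**
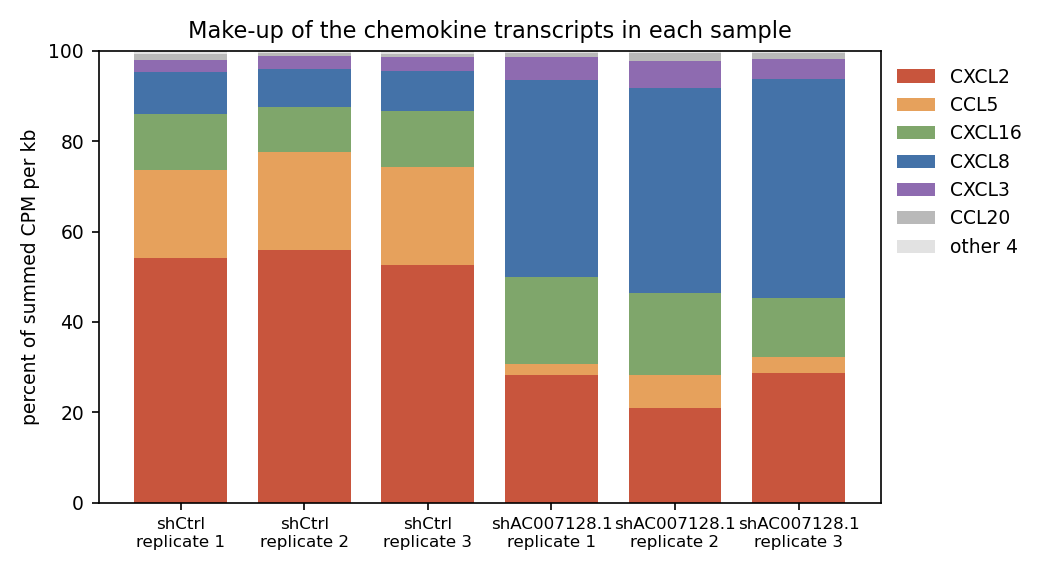
Share of each chemokine in the summed level of the 10 genes (percent of CPM per kb), for each of the 6 samples. CXCL2 took 52.7 to 55.9% in shCtrl samples and 21.0 to 28.8% in shAC007128.1 samples, while CXCL8 took 8.41 to 9.18% and 43.5 to 48.4%.

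CXCL8, CXCL3 and CXCL2 belong to one gene cluster, 358.7 kb from the CXCL8 start to the CXCL2 end on hg38 chromosome 4. CXCL10 and CXCL11 together span 20.3 kb and lie 1.92 Mb further on. Within 500 kb on each side of the cluster there were 18 protein-coding genes, of which 9 were tested. CXCL2, called lower, was the only gene of the 9 called. Over all tested genes 10.1% were called lower and 5.57% higher. By adjusted p alone CXCL3 and AREG were also lower, and ANKRD17 and CXCL8 were higher. That rule took 19.8% of all tested genes as lower and 21.0% as higher. The window was drawn around the chemokine members, CXCL2 among them. AREG, an EGF receptor ligand, went from 139.8 ± 5.38 to 77.4 ± 5.51 CPM (log2 fold change −0.85, adjusted p = 0.000249), and ANKRD17 had a log2 fold change of 0.67 (adjusted p = 0.00054). RASSF6 (−0.69, adjusted p = 0.0778), MTHFD2L (−0.42, 0.323), EPGN (−1.14, 0.283) and EREG (0.21, 0.664) did not pass. The platelet and epithelial chemokine genes CXCL6, PF4V1, PF4 and PPBP between them were listed at 0 in all 6 samples.

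**Figure D4:**
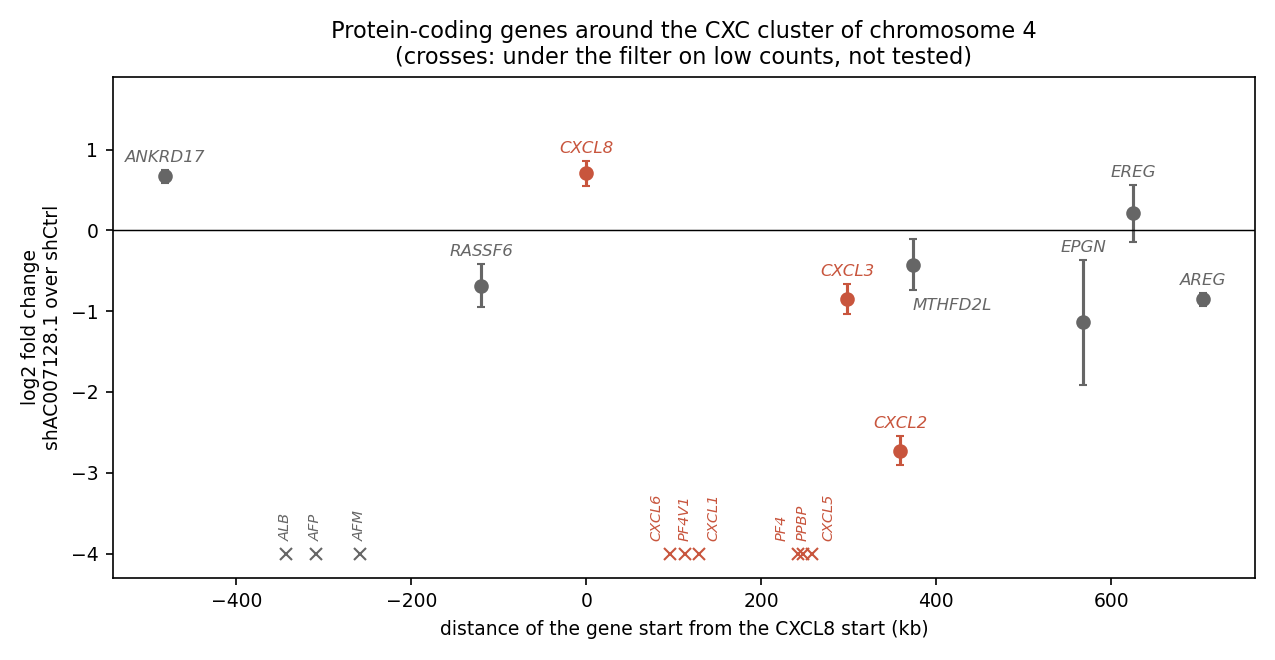
Log2 fold change with standard error of the protein-coding genes around the CXC cluster, against the distance of each gene's start from the CXCL8 start in kb. Chemokine genes are in red and others in grey, and crosses at the bottom mark genes under the filter on low counts; CXCL8 (0.70) and CXCL2 (−2.73) lay at opposite ends of the cluster.

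AU-rich elements are shown because CXCL2 and CXCL8 both carry them. The pentamer ATTTA was counted in the 3′ UTR of each gene's canonical GENCODE v44 transcript and compared with 19229 3′ UTRs, which had a median of 1.52 per kb. CXCL2 held 10 (13.97 per kb, above 99.4% of 3′ UTRs), CXCL3 held 7 (10.4 per kb, 98.8%), CXCL1 held 6 (7.77 per kb, 97.3%) and CXCL8 held 9 (7.19 per kb, 96.5%). CXCL5 held 11 (5.51 per kb, 92.5%) and CCL20 held 3 (6.34 per kb, 94.9%). CXCL10, CXCL11 and CXCL16 held 1 each and CCL5 held 0. The densest 30 bases lie at chr4:74097590-74097619 (minus) for CXCL2, chr4:74037090-74037119 (minus) for CXCL3 and chr4:73743108-73743137 (plus) for CXCL8 on hg38, with the pentamers in capitals.
CXCL2: aagtcttctATTTATTTATTTATTTATTTA
CXCL3: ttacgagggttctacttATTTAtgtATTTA
CXCL8: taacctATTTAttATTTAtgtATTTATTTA
CXCL2, which was lower, and CXCL8, which was higher, were both dense in the pentamer, and CCL5, with the largest fitted fall, had none. mRNA decay was not measured, and the part of the pentamers in these differences was not tested.

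Other chemokines were hardly present. Of 38 further chemokine genes 36 had an identifier (CCL3L1 and CCL4L1 were not matched), 20 were listed at 0 in all samples and 3 were tested. edgeR, DESeq2 and limma-voom called 0 of the 3 in either direction, and 0 had an unadjusted p under 0.05 in edgeR. At that unadjusted limit 24.2% of all tested genes were lower and 24.9% higher. CCL3, a monocyte attractant, had 1.01 ± 0.482 CPM in shCtrl and 1.09 ± 0.555 in shAC007128.1 (log2 fold change 0.12, adjusted p = 0.869). It shares 1115 of its 1494 exonic bases with CCL3-AS1. CCL22, a ligand of CCR4, had 1.24 ± 0.251 and 1.43 ± 0.253 CPM (0.20, adjusted p = 0.571). CCL26, a ligand of CCR3, had 0.400 ± 0.115 and 0.180 ± 0.148 CPM (−1.14, adjusted p = 0.224). Without shCtrl replicate 1 the filter let CCL28 in, and edgeR called it lower (adjusted p = 0.0282). Its counts were 0, 34 and 13 in shCtrl replicates 1, 2 and 3 and 0 in every shAC007128.1 sample. It entered only through the shCtrl samples where it was present, so that call is not independent of the filter.

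Of 23 chemokine receptors 6 were tested, 2 were called lower and 1 higher, with a median log2 fold change of −0.94. Over all tested genes 10.1% were called lower and 5.57% higher. CXCR1, a receptor of CXCL8, had 100, 50 and 69 counts in shCtrl and 20, 16 and 20 in shAC007128.1 (log2 fold change −1.59, SE 0.39, adjusted p = 0.0143). Without shCtrl replicate 1 its log2 fold change was −1.31 and the adjusted p 0.0629. It was also not called with glmTreat against a fold of 1.5 (adjusted p = 0.0609). ACKR4, a scavenger of CC chemokines, fell from 1.796 ± 0.473 to 0.570 ± 0.220 CPM (−1.65, SE 0.36, adjusted p = 0.00908) and lies inside ACAD11. CXCR6, the receptor of CXCL16, had 30, 47 and 21 counts in shCtrl and 71, 94 and 91 in shAC007128.1. It rose from 0.434 ± 0.139 to 1.51 ± 0.229 CPM (1.79, SE 0.32, adjusted p = 0.00409), the opposite direction to its ligand, and lies inside FYCO1. CCR10 (−1.30, adjusted p = 0.0622), which was called lower by DESeq2 and without shAC007128.1 replicate 2, CCR3 (−0.59, 0.374) and CCRL2 (0.20, 0.791) did not pass. CXCR2, the main receptor of the CXCL2 group, had 9, 12 and 0 counts in shCtrl and 4, 4 and 0 in shAC007128.1 and was not tested.

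Cytokines that induce chemokines were lower in part. Of 23 listed cytokines and receptors 16 were tested, 3 were called lower and 0 higher, with a median of −0.27. Over all tested genes 10.1% were called lower and 5.57% higher. At an unadjusted p under 0.05 in edgeR 5 were lower and 3 higher, against 24.2% and 24.9% of all tested genes. DESeq2 and limma-voom also called 0 higher. The 3 called lower were IL1A, IL1B and IL6. IL1A, an alarmin of epithelium, had 297, 294 and 290.2 CPM in shCtrl and 35.1, 37.9 and 46.5 CPM in shAC007128.1 (log2 fold change −2.88, SE 0.12, adjusted p = 1.6e-05). IL1B had 209.8, 209.5 and 206 CPM and then 32.4, 33.6 and 36.1 CPM (−2.62, SE 0.07, adjusted p = 8.39e-06). The knockdown samples of both lay far below the controls. IL6 fell from 28.7 ± 0.821 to 4.62 ± 0.238 CPM (−2.64, SE 0.11, adjusted p = 1.6e-05). Without shAC007128.1 replicate 1, IL1R1 was called higher (1.04, adjusted p = 0.0387). Without replicate 2 of that group CSF2 was called higher (1.12, adjusted p = 0.0439) and IL1RN lower (−1.15, adjusted p = 0.0248). TNF was scarce, at 0.468 and 0.269 CPM on average (−0.79, adjusted p = 0.557).

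Among NF-κB subunits and inhibitors all 16 were tested, 1 was called lower and 0 higher, with a median of −0.15. Over all tested genes 10.1% were called lower and 5.57% higher. At an unadjusted p under 0.05 in edgeR 5 were lower and 3 higher, against 24.2% and 24.9% of all tested genes. DESeq2 and limma-voom called 0 higher. RELB, a subunit of the non-canonical pathway, fell from 33.6 ± 1.49 to 14.95 ± 2.87 CPM (−1.17, SE 0.15, adjusted p = 0.000973). Among AP-1 and C/EBP factors 12 of 13 were tested, 6 were called lower and 0 higher, against the same shares of all tested genes, with a median of −0.94. At an unadjusted p under 0.05 in edgeR 9 were lower and 1 higher, and DESeq2 and limma-voom called 0 higher. CEBPB, which activates inflammatory promoters, fell from 375 ± 7.28 to 85.7 ± 11.8 CPM (−2.13, SE 0.11, adjusted p = 2.96e-05). FOS, a partner of JUN in AP-1, fell from 189 ± 9.07 to 44.1 ± 3.05 CPM (−2.10, SE 0.08, adjusted p = 1.6e-05). CEBPG, another C/EBP factor, fell from 206 ± 4.95 to 71.3 ± 7.87 CPM (−1.53, SE 0.09, adjusted p = 4.89e-05).

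The interferon arm that acts on CXCL10 and CXCL11 had 18 of 20 genes tested, 0 called lower and 1 higher, with a median of 0.19. Over all tested genes 10.1% were called lower and 5.57% higher. By adjusted p alone 8 of the 18 were higher and 1 lower, against 21.0% and 19.8% of all tested genes. At an unadjusted p under 0.05 in edgeR 9 were higher and 1 lower, against 24.9% and 24.2%. DESeq2 and limma-voom called 0 lower. The gene called higher was IFNAR1, a chain of the type I interferon receptor, which rose from 29.8 ± 3.69 to 63.7 ± 11.1 CPM (1.10, SE 0.16, adjusted p = 0.00139). Without shCtrl replicate 3 (0.99) or shAC007128.1 replicate 3 (0.98) its log2 fold change was just under the fold limit. IRF1 (−0.14, adjusted p = 0.362), a transcription factor named after its values were seen, did not pass. All 13 factors of AU-rich mRNA decay were tested and 0 were called by edgeR's quasi-likelihood test, DESeq2 or limma-voom, with a median of 0.47. At an unadjusted p under 0.05 in edgeR 10 were higher and 2 lower, against 24.9% and 24.2% of all tested genes. ZFP36L2, which binds AU-rich elements, had a log2 fold change of 0.89 (adjusted p = 0.000124), and its relative ZFP36L1 had −0.71 (adjusted p = 0.000154); both were named after their values were seen. glmTreat against a fold of 1.5 called ZFP36L2 higher (adjusted p = 0.00536). ARID5A was called lower without shCtrl replicate 3 (−1.09) or shAC007128.1 replicate 2 (−1.02), and ZFP36 higher without shAC007128.1 replicate 3 (1.51). Of 14 proteases that shed or trim chemokines 10 were tested, 0 were called lower and 2 higher, with a median of −0.57. Over all tested genes 10.1% were called lower and 5.57% higher. At an unadjusted p under 0.05 in edgeR 3 were lower and 2 higher, against 24.2% and 24.9%. DESeq2 and limma-voom called 0 lower. MMP13, a collagenase, had 0.656, 0.621 and 0.825 CPM in shCtrl and 5.16, 4.75 and 5.30 CPM in shAC007128.1 (2.85, SE 0.20, adjusted p = 7.72e-05). MMP1, another collagenase, rose from 0.943 ± 0.177 to 2.18 ± 0.285 CPM (1.21, SE 0.24, adjusted p = 0.00649). ADAM10 (−0.09, adjusted p = 0.326) and ADAM17 (−0.83, adjusted p = 0.000154), sheddases of CXCL16 and of other ligands, were also named after their values were seen. glmTreat against a fold of 1.5 called ADAM17 lower (adjusted p = 0.0124).

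**Figure D5:**
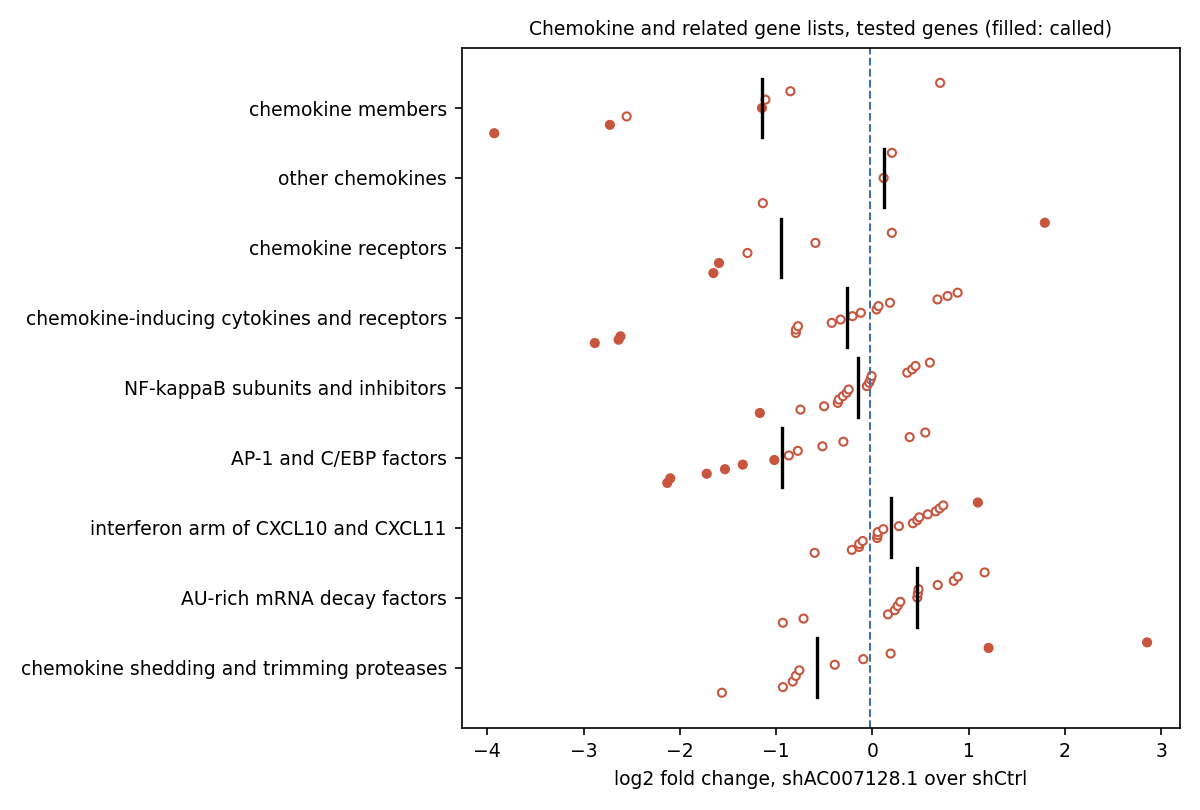
Log2 fold change of every tested gene in the chemokine list and in 8 related lists, 1 point per gene, filled where the gene was called. Short black lines are list medians and the dashed line is the median of all tested genes (−0.02). The AP-1 and C/EBP list had 6 of 12 tested genes called lower, where 10.1% of all tested genes were.

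By Euclidean distance of centred log2 CPM over the 6 samples, among 12598 other tested genes whose average log2 CPM was 1 or more, the genes nearest to CXCL8 were ATL2 (distance 0.0865), ARL15 (0.0911) and SASS6 (0.103). Their log2 fold changes were 0.72, 0.66 and 0.71. Nearest to CCL5 were MYO15B (0.525), the interferon-induced gene RSAD2 (0.84) and the lncRNA COSMOC (1.11), with log2 fold changes of −3.79, −4.51 and −3.31. The distances for CCL5 were larger than those for CXCL8.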

How the data were processed

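RNA sequencing of KYSE150 cells with shCtrl or shAC007128.1 was analysed from the authors' table. The authors discarded ribosomal, adapter-bearing and poor-quality reads before alignment to hg38 by TopHat. The submitters' processing notes name CASAVA 1.8 and TopHat2 2.0.6, and list the builds mm10 and GRCh38. The deposited table gives estimated counts for each Ensembl gene, which the authors left unnormalized and wrote as whole numbers. The counting program, annotation release and strand use are not given in the sources used here. Groups and replicate numbers come from the labels' titles and descriptions. Positions are from GENCODE v44 on hg38, which held 60357 of the 67140 identifiers (89.9%).

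Genes were filtered with filterByExpr, scaled by TMM (factors 0.967 to 1.042) and tested with edgeR 4.0.16 (glmQLFit, glmQLFTest) in R 4.3.3, with Benjamini-Hochberg adjustment over all 19254 genes tested. The standard error is the log2 fold change over the root of F. The step was tested on simulated counts. Single values were compared by two-sided exact permutation (scipy 1.17.1). Motifs were matched letter by letter. Alternatives were DESeq2 1.42.0, limma-voom (limma 3.58.1), DESeq2's size factors, library size only, other filters, the replicate block, each sample left out, counts divided by 4, glmTreat against a fold of 1.5, no fold limit and no length correction; libraries thinned to the smallest total were added after seeing the data.

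The members and gene lists were chosen with earlier results of these data known. Named genes are the members, AC007128.1, every other chemokine or receptor gene past the filter, up to 3 called genes with the smallest p per direction in each other list, and the 3 genes nearest in pattern to CXCL8 and to CCL5. Genes around the chromosome 4 cluster were named by position. CXCR2, TNF and the marker genes were named after their values were seen. Some genes of the lists are not reported here.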

Additional observations from a re-analysis of the deposited data

How the results depend on the processing

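The number of chemokines called lower was 3 or 4 under every alternative run. It was 4 with limma-voom and without shAC007128.1 replicate 3, where CXCL11 joined, and with no limit on fold change, where CXCL3 joined and 1 chemokine, CXCL8, was called higher. Without length correction the share of CXCL8 differed by 39.7 percentage points in place of 36.9. Genes called lower and higher over the related lists (12 and 4) stayed within 1.5 times under the alternatives run for them. Those did not include glmTreat or the lack of a fold limit. Over all tested genes 10.1% were called lower and 5.57% higher. By adjusted p alone, with no fold limit, more genes of these lists were lower and more were higher. That rule took 19.8% of all tested genes as lower and 21.0% as higher. The direction then differed by list. The AP-1 and C/EBP list had 8 lower and 1 higher. The AU-rich decay list had 2 lower and 8 higher, and the interferon list 1 lower and 8 higher. JUND lost its call without shCtrl replicate 2 or shAC007128.1 replicate 3 (log2 fold changes of −0.99 and −0.96), and glmTreat against a fold of 1.5 called JUN lower (adjusted p = 0.0278). AC007128.1 did not pass under any sample left out, with a log2 fold change between −1.29 and −0.51. The replicate numbers did not pair the samples: deviations of same-numbered samples correlated at 0.031, −0.025 and −0.03, and 2 of 6 samples correlated best with their own number. With the replicate block 3 chemokines were called lower and 0 higher, over all genes 1692 were lower and 977 higher (1945 and 1073 without it), and the summed CXCL1, CXCL2 and CXCL3 fell by 2.46 on the log2 scale (adjusted p = 0.000984). CXCL1, CXCL5, CXCL10 and CXCL11 had at most 9 counts per library in shAC007128.1, so at this depth their differences are poorly measured, and for CXCL1 the handling of shared reads is also unknown.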
